A study of Apis mellifera with 13 samples.

Results

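Nan (nanchung, GB44065), Iav (inactive, GB40818) and Pyx2 (pyrexia 2, GB53163) are genes of transient receptor potential (TRP) channels, and they were found by their symbols in the tables of honey bee antennal transcripts. The rule gave 3 genes of the 13414 in the tables. All 3 passed the filters on low values. They were chosen by their symbols, but with the study's lists of differing genes and earlier results on these libraries known, so the measured differences between VSH and NVS bees, between foragers and nurses and with age all count as having chosen them. For that reason their values and differences are a description, with no p-value.

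TRP channels are cation channels of the cell membrane that turn physical and chemical stimuli into an electrical signal. In Drosophila, Nan and Iav are subunits of the vanilloid branch that work together in the cilia of chordotonal neurons, the stretch receptors behind hearing and the sense of antennal movement, and Nan also takes part in the sensing of dry air. Pyrexia of Drosophila belongs to the ankyrin branch and opens on warming. Worker bees meet these stimuli in the brood nest, which they keep warm and humid, and the antenna holds mechanoreceptors and receptors for temperature and humidity beside its olfactory sensilla.

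RNA was sequenced from 13 libraries of worker antennae. The hygienic VSH bees and their NVS controls gave 4 libraries each, while 2 came from foragers, called FOR, and 3 from nurses, called NUR. VSH bees were marked workers caught while opening, enlarging or emptying brood cells that held the mite Varroa, and NVS bees were marked nest mates of matched age that were never seen at this work. Both came from a donor colony with good VSH performance and lived in a single observation hive. Foragers carried pollen and nurses were caught while reaching into cells with young brood. Both came from standard hives and their ages are not known, so task and age cannot be told apart in this comparison. All bees were hybrids of the ligustica and carnica races. The labels call the tissue antennae, whereas the methods describe flagella, which leave out the pedicel where insects have the large chordotonal organ of Johnston. A library pools 8 pairs according to the methods and 4 pairs according to the labels, so p-values measure the spread between pools.

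Values are pseudo-counts, read counts that the authors adjusted to equal library size, separately in a VSH and NVS table and in a FOR and NUR table. Columns summed to 1.92e+07 to 2.03e+07 in the former and to 3.36e+07 to 3.47e+07 in the latter, and the depth of a single library is not known. The odorant co-receptor Or2, the marker of olfactory neurons, lay at 9239 to 21390 in all libraries. The summed level of the 7 muscle markers found of 11 was 1844 in VSH4 and 144.5 to 252.7 in the other VSH and NVS libraries. NUR2 stood apart from the other 4 libraries of its table, at 46.4 on a first principal component against -27.2 to 1.25. No sequence or genome position of the genes is shown, because the gene table at hand belongs to a later assembly than the files.

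Nan had a much higher level in foragers than in nurses. Its pseudo-count was 919 in FOR2 and 659 in FOR3, against 205 in NUR1, 100.1 in NUR2 and 71.2 in NUR3. The groups did not overlap, and the lowest forager library lay far above the highest nurse library. The means were 789 ± 184 (SD, n = 2) and 125 ± 70.2 (SD, n = 3), and the log2 difference was 2.77 with a standard error of 0.44, a fold of 6.80 on the scale of the log2 value plus a pseudocount of 1. Without a single library it lay between 2.43 and 3.19. Of the 1735 genes whose level was within 2-fold of that of Nan, 7 had a larger difference in size. Nurses scattered widely for this gene, with a coefficient of variation of 56.0%.

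Iav, the partner of Nan in Drosophila, also had a higher level in foragers. It was at 771 in FOR2 and 729.7 in FOR3, against 376 in NUR1, 214 in NUR2 and 254 in NUR3. The forager libraries were close to each other, and again neither of them reached down into the nurses' range. The mean was 750.2 ± 29.0 (SD, n = 2) in FOR and 281 ± 84.2 (SD, n = 3) in NUR bees, a log2 difference of 1.45 with a standard error of 0.26 and a fold of 2.74. Leaving out a library gave 1.28 to 1.68. Of the 1972 genes within 2-fold of Iav in level, 36 had a larger difference in size. NUR1 was the highest nurse library for both Nan and Iav.

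Pyx2 went the other way. Its pseudo-count was 25.9 in FOR2 and 29.6 in FOR3, and it was 34.1 in NUR1, 93.6 in NUR2 and 62.5 in NUR3. All nurse libraries were above both forager libraries, though NUR1 was close to them. The mean was 27.7 ± 2.59 (SD, n = 2) in FOR and 63.4 ± 29.7 (SD, n = 3) in NUR bees. The log2 difference was -1.05 with a standard error of 0.52, and -0.72 without NUR2, the library that stood apart. Of the 1032 genes within 2-fold of Pyx2 in level, 224 (21.7%) had a larger difference in size.

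Thus 2 of the 3 genes lay without overlap on the forager side and 1 on the nurse side, in a table where 16.1% of the 10436 tested genes lay entirely above the nurses in foragers and 16.5% entirely below, 32.6% in all. Since the genes were chosen with this comparison known, nothing is read from these counts. The haemocyte markers found, 4 of 4, summed to 1517 to 2039 in FOR and 2788 to 3263 in NUR libraries. The photoreceptor markers found, 4 of 5, summed to 83.7 to 109.7 in FOR and 143.5 to 231.5 in NUR libraries, with the opsin Uvop at 0 in all, and the 3 support cell markers found of 4 summed to 1127000 to 1162000 and 1230000 to 1291000. The part of these marker lists in the lower forager level of Pyx2 was not tested. The 3 of 5 neuron markers found summed to 20430 to 24850 in FOR and 22140 to 24920 in NUR libraries, ranges that overlapped. So did those of the fat body and haemolymph markers, at 9287 to 10540 in FOR and 9611 to 11610 in NUR libraries. Sums higher in foragers without overlap, as Nan and Iav were, were those of the 7 muscle markers, at 379.0 to 403.6 against 257.7 to 374.9, and of the 8 sensory cilium genes described further on, at 15260 to 15500 against 14040 to 14570. Such sums follow their most abundant genes, so they are not comparable with the fold of a single gene. Of the 8 cilium genes 5 had a higher and 3 a lower level in foragers. The mean of nompB, the largest part of the sum, was 6915 in FOR and 6040 in NUR, and that of IFT122 was 2345 and 2698. The part of the muscle and cilium genes in the higher forager levels of Nan and Iav was not tested. In whole antennae, fewer cells that express a gene and less of its RNA per cell cannot be told apart.

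**Figure D1:**
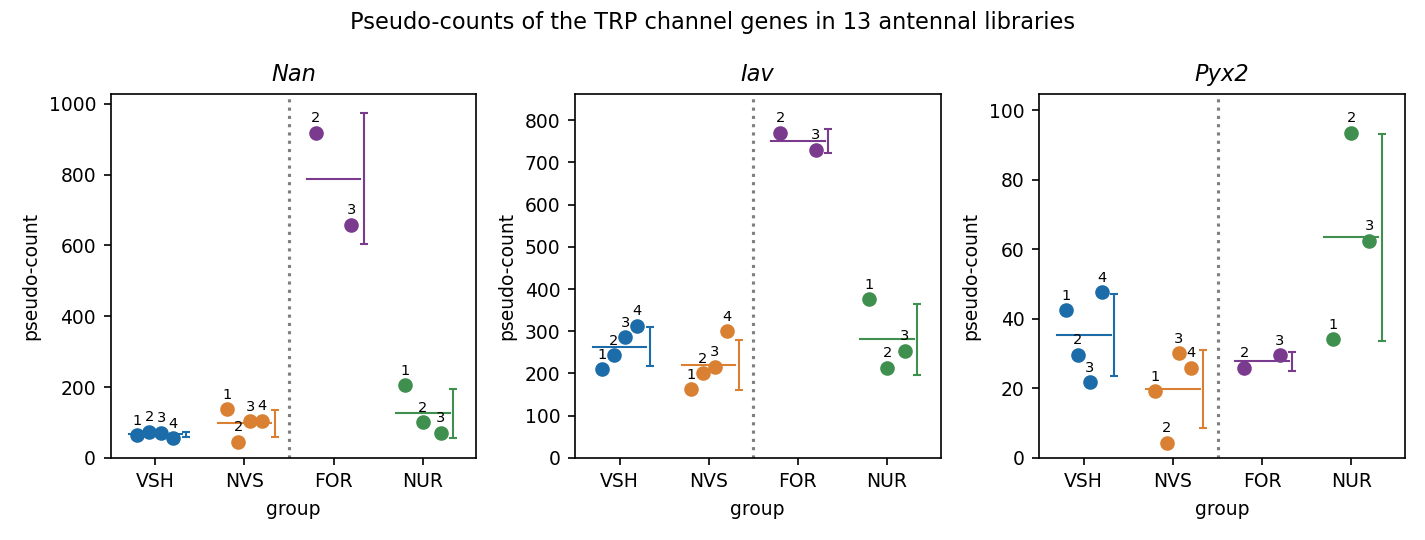
Pseudo-counts of Nan, Iav and Pyx2 (y axis) in the 4 groups (x axis), with a point for each library labelled by its number, a horizontal line at the group mean and a bar of 1 SD on each side of it. The dotted line parts the separately normalised tables. Foragers lie above nurses for Nan and Iav and below them for Pyx2, and VSH and NVS libraries overlap for all 3 genes.

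Between VSH and NVS bees the values of all 3 genes overlapped. Over all 10204 tested genes 6.13% did not overlap between these groups, 2.86% with VSH and 3.26% with NVS the higher. Nan was at 64.2, 73.3, 71.4 and 55.0 in VSH1 to VSH4 and at 138, 45.8, 103 and 105 in NVS1 to NVS4. The VSH libraries kept to a narrow band, which 3 NVS libraries exceeded and NVS2 undercut. The means were 66.0 ± 8.29 (SD, n = 4) and 98.0 ± 38.2 (SD, n = 4), with a log2 difference of -0.47 and a standard error of 0.29. It was -0.79 without NVS2 and -0.27 without NVS1. In the pairs of matched age VSH was below NVS in pairs 1, 3 and 4, by 1.09, 0.52 and 0.93 on the log2 scale, and above it by 0.67 in pair 2.

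Iav was at 209.5, 243, 286 and 313 in VSH1 to VSH4 and at 163, 200.2, 216 and 301 in NVS1 to NVS4. The groups overlapped. Libraries of both kinds rose from pair to pair, in the order of the age of the bees, and within each pair the VSH library was the higher. The excess of VSH over NVS was 0.36, 0.28, 0.41 and 0.06 on the log2 scale in pairs 1 to 4, the smallest being that of the oldest bees. Such an order in all 4 pairs was seen in 11.5% of all tested genes. The VSH mean of 263 ± 46.0 (SD, n = 4) stood beside an NVS mean of 219.8 ± 58.3 (SD, n = 4). The log2 difference was 0.28, with a standard error of 0.18 that fell to 0.11 with the pairs taken as blocks or with age as a covariate. It was 0.14 without NVS1, 0.19 without VSH4 and 0.44 without NVS4.

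Pyx2 was at 42.5, 29.6, 21.8 and 47.6 in VSH1 to VSH4 and at 19.1, 4.29, 30.1 and 25.9 in NVS1 to NVS4. NVS2 was far below the others, and the remaining libraries of both groups overlapped. VSH was above NVS in pairs 1, 2 and 4 and below it in pair 3. The means were 35.4 ± 11.8 (SD, n = 4) and 19.9 ± 11.3 (SD, n = 4), and the log2 difference of 1.01 (standard error 0.50) became 0.44 without NVS2. The haemocyte markers summed to 1358 to 1934 in VSH and 1040 to 1505 in NVS libraries, and the fat body and haemolymph markers, 7 found of 8, to 4854 to 9350 in VSH and 4613 to 5498 in NVS libraries. The latter sum was higher in VSH in all 4 pairs, whereas Pyx2 was lower in VSH in pair 3. Among VSH libraries the sum was highest in VSH4 and lowest in VSH3, as Pyx2 was. Among NVS libraries the sum was nearly level in NVS1 to NVS3, at 4640, 4613 and 4655, and highest in NVS4. Pyx2 was far lower in NVS2 than in the others and highest in NVS3. The part of these markers in the difference was not tested. VSH4, the library with raised muscle markers, was the highest for Pyx2 and the lowest VSH library for Nan, and without it the log2 differences were 0.85 for Pyx2 and -0.38 for Nan.

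All 3 genes scattered more within the VSH and NVS groups than most genes of like level. The residual SD of the log2 values was 0.50 for Nan, 0.32 for Iav and 0.90 for Pyx2, against medians of 0.31, 0.18 and 0.48 over the 1139, 1857 and 1056 genes within 2-fold of each in level. For Iav it fell to 0.09 once age was in the fit.

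The pseudo-count of Iav was higher in each older library than in the next younger, in VSH and in NVS bees alike. In VSH bees it went from 209.5 at a mean age of 7.5 days to 313 at 17 days, and in NVS bees from 163 at 7.5 days to 301 at 17.5 days. This order in both groups held for 0.519% of the tested genes. The slope was 0.072 per day on the log2 scale (standard error 0.015) with the group as a term, 0.060 in VSH and 0.083 in NVS libraries alone, and 0.064 to 0.084 without a single library. Around this line the residual SD was lower than in all but 6.79% of the genes of like level. Since age was among the comparisons known when the gene was chosen, this too is a description. Each step of age is a single pair of pools, so age and other traits of a pair cannot be told apart.

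Nan and Pyx2 showed no such order. The slope of Nan was -0.0040 per day (standard error 0.040), and its sign turned with the library left out, from -0.033 without NVS4 to 0.034 without NVS1. That of Pyx2 was 0.076 (standard error 0.066), 0.119 without VSH1, 0.051 without NVS4 and 0.031 without NVS2. The lowest values of Nan and Pyx2 among the NVS libraries were in NVS2, whose mean age was 9.5 days. So were those of the TRP channel genes NompC, Pain, Wtrw and trpgamma. Trpm3 was instead highest in NVS2, at 419, and TRPML was lowest in NVS4, at 833 against 957 in NVS2. Iav in NVS2 lay between its values in NVS1 and NVS3.

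**Figure D2:**
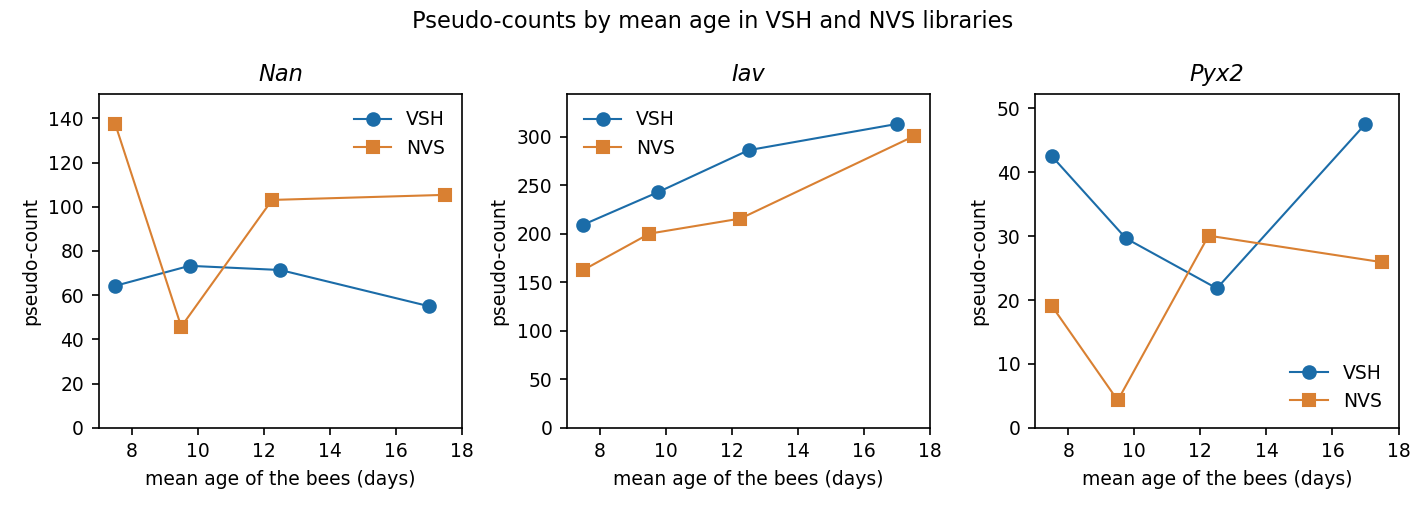
Pseudo-counts (y axis) against the mean age of the pooled bees in days (x axis) for the 4 VSH and 4 NVS libraries, with a point for each library and lines that join libraries of a group. Iav climbs with age in both groups, from 163 to 313, with VSH above NVS at each age, whereas Nan and Pyx2 change direction from library to library.

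The ratio of Nan to Iav within a library measures how the levels of these partner genes shift against each other. A factor common to all genes of a library cancels in it. The pseudo-counts were not made by such a factor alone, since DNAH2 stood at 0.0091 in NUR2, too small for a scaled whole count. The cancelling is therefore not exact. The ratio was 1.19 in FOR2 and 0.90 in FOR3, and 0.55, 0.47 and 0.28 in NUR1 to NUR3. Both forager libraries thus lay above all nurse libraries. In VSH1 to VSH4 it was 0.31, 0.30, 0.25 and 0.18, a narrow range that was lower in the older bees. In NVS1 to NVS4 it was 0.84, 0.23, 0.48 and 0.35, with NVS1 the highest in-hive library. Group means were 1.05 ± 0.21 (SD, n = 2) in FOR, 0.43 ± 0.14 (SD, n = 3) in NUR, 0.48 ± 0.27 (SD, n = 4) in NVS and 0.26 ± 0.06 (SD, n = 4) in VSH bees. The last 3 overlapped, and both forager libraries lay above every other library. Transcript lengths were not used here, so the ratio says nothing about which gene has more molecules.

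**Figure D3:**
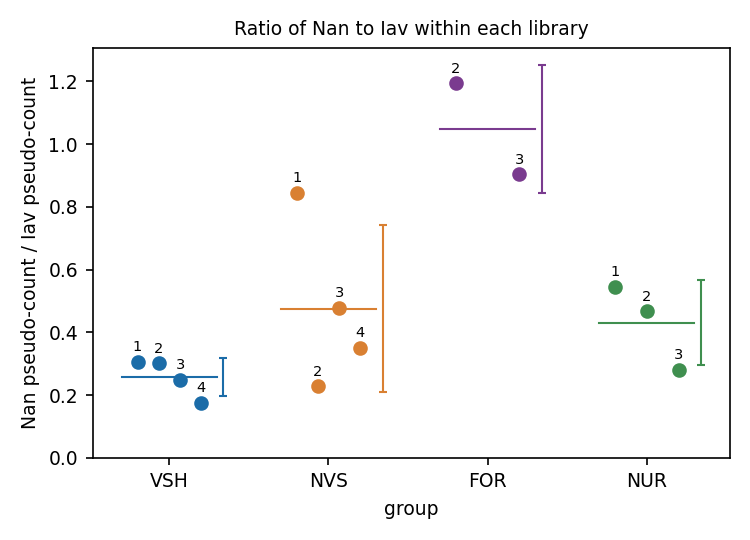
Ratio of the Nan to the Iav pseudo-count (y axis, linear) in each of the 13 libraries by group (x axis), with library numbers, a line at the group mean and a bar of 1 SD on each side. Both foragers, at 0.90 and 1.19, are above all others, which reach up to 0.84, and the 4 VSH libraries lie between 0.18 and 0.31.

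To set the 4 groups side by side, each gene was ranked within its library, as the percentage of the 13414 genes with a lower value. The tables differ in depth and in genes at 0, 1977 in all libraries of the former and 2059 in all of the latter, which also moves such ranks. Nan was above 54.8% and 59.8% of genes in FOR libraries, and above 38.5% to 45.9% of them in all the others, whose groups overlapped. Iav was above 56.2% to 57.2% in FOR, 49.0% to 52.4% in VSH, 47.0% to 51.8% in NVS and 44.8% to 48.9% in NUR libraries. Here FOR came first, and the neighbouring ranges below it overlapped. Pyx2 ranked above 34.4% to 39.9% of genes in NUR, 35.2% to 38.7% in VSH, 27.3% to 36.5% in NVS and 32.8% to 32.9% in FOR libraries.

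Among the other TRP channel genes none passed the test in any of the 3 comparisons. Of all genes only 4 passed between VSH and NVS bees, 10 between foragers and nurses and 15 for age. With so few calls, none among these genes says little about the family. The study's edgeR test on counts called many more genes in both group comparisons. The study named Pyx2 among its differing genes of chemical sensing, which it gave as higher in VSH than in NVS bees. Nan was among the genes it named as regulated in common between VSH and nurse bees. Of 15 symbols listed, 8 were found. They were NompC, the mechanotransduction channel of Drosophila touch and hearing neurons, Pain and Wtrw, members of the ankyrin branch like pyrexia, Trpm3 and TRPML of the melastatin and mucolipin branches, and trpgamma, TRP and TRPL, of which the latter pair carries the light response in Drosophila photoreceptors. The list had been drawn up by family and not by how its genes behaved. NompC lay at 571, 531, 539 and 667 in VSH1 to VSH4 and at 527, 408, 533 and 577.5 in NVS1 to NVS4, and the log2 difference was 0.18 with a standard error of 0.12 (limma, adjusted p = 0.582). In foragers it was at 995 and 1282 and in nurses at 953, 1464 and 936, so that the groups overlapped, with a log2 difference of 0.05 (adjusted p = 0.955 from limma).

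Between foragers and nurses 0 of the 7 other TRP genes tested passed an adjusted p of 0.05 in limma. Of all genes 0.0958% did, 0.0575% with higher and 0.0383% with lower levels in foragers. At an unadjusted p under 0.05 stood 1 of the 7, beside 13% of all genes. This was TRPL, listed at 0 in both foragers and at 2.95, 9.40 and 4.45 in nurses, a level at which no fold is given (adjusted p = 0.341 from limma). Trpm3 had the next smallest p, at 801 and 1008 in foragers and at 764, 606 and 755 in nurses, with a log2 difference of 0.35 (standard error 0.18, adjusted p = 0.469). The remaining differences were -0.17 for Pain, -0.03 for TRPML, 0.02 for Wtrw and 0.37 for trpgamma. The median over the 7 genes was 0.02, and it was 0.00 over all genes tested. Set beside them, the differences of 2.77 for Nan, 1.45 for Iav and -1.05 for Pyx2 were larger in size than that of each other TRP gene with a mean of at least 10, which leaves out TRPL. The 3 genes were chosen with this comparison known and the others by family, so nothing is read from this order. Whether they differ from those was not tested. Of those genes only trpgamma lay near the low level of Pyx2, at which 21.7% of genes had a larger difference than Pyx2.

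Between VSH and NVS bees 0 of 6 other TRP genes passed in limma, against 0.0392% of all genes, and at an unadjusted p under 0.05 there were 0, against 11.2%. Their log2 differences ran from -0.11 for Trpm3 to 0.40 for trpgamma, a gene at low level (6.01 to 42.5), with a median of -0.02 beside 0.00 over all genes. With the pairs as blocks 1.24% of all genes passed and again 0 of these 6, of which NompC had the lowest adjusted p, 0.309 from limma. For the slope on age 0 of 6 passed, against 0.147% of all genes, and 0 had an unadjusted p under 0.05, against 12.3%. The smallest adjusted p from limma was 0.422, for TRPML at -0.020 per day. TRP was at most 8.33 in every library and did not pass the filters. Over the VSH and NVS libraries the highest value was 1.64 times the lowest for NompC, 1.49 for Pain, 1.29 for Trpm3, 1.25 for Wtrw and 1.22 for TRPML, and 7.08 for trpgamma. It was 3.00 for Nan, 1.93 for Iav and 11.1 for Pyx2.

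Genes that build mechanosensory organs and sensory cilia were listed because Nan and Iav proteins sit in such cilia in Drosophila. Of 13 listed symbols for mechanosensory and chordotonal genes 4 genes were found: btv, a dynein of ciliary transport, rempA, a subunit of the intraflagellar transport complex, and a pair of genes that share the symbol nompA, a protein that ties the cilium to the cuticle. The nompA genes may share reads and their separate values are uncertain. Between foragers and nurses limma called 0 of the 4, beside 0.0958% of all genes, with 0 also at an unadjusted p under 0.05, beside 13%, and gave log2 differences of 0.12 for btv (adjusted p = 0.769), -0.11 for rempA (adjusted p = 0.672) and -0.27 for the nompA gene GB50228 (adjusted p = 0.520). Between VSH and NVS bees 0 of 4 passed, with 0 at an unadjusted p under 0.05, where 0.0392% and 11.2% of all genes did. With the pairs as blocks 0 passed and 1 had an unadjusted p under 0.05, the nompA gene GB42735, named after its values were seen, at a log2 difference of 0.20 (adjusted p = 0.274 from limma). In the slope on age the counts were 0 and 0, beside 0.147% and 12.3%.

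Of the genes for ciliary transport and axonemal dyneins, limma called 0 of 8 between foragers and nurses, and 0 of the 7 tested between VSH and NVS bees and for the slope on age. The largest changes between foragers and nurses among those with a mean of at least 10 were 0.61 for the dynein DNAH3 (adjusted p = 0.407), -0.47 for the dynein DNAH7 (adjusted p = 0.811) and -0.20 for IFT122, a subunit of intraflagellar transport (adjusted p = 0.461). A single gene had an unadjusted p under 0.05 in each comparison, a share near the 13%, 11.2% and 12.3% of all genes, and these were named after their values were seen: DNAH2 between foragers and nurses at a mean of 9.77 and 0.83, IFT80 between VSH and NVS bees at -0.15, and DNAH3 in the slope on age at 0.06 per day. DNAH3 was at 625 and 657 in foragers and at 597, 378 and 326 in nurses, so that NUR1 was again the nurse library nearest to foragers. The 8 symbols listed for temperature and humidity receptors of the ionotropic and gustatory kind matched no symbol in the files and were not analysed here.

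**Figure D4:**
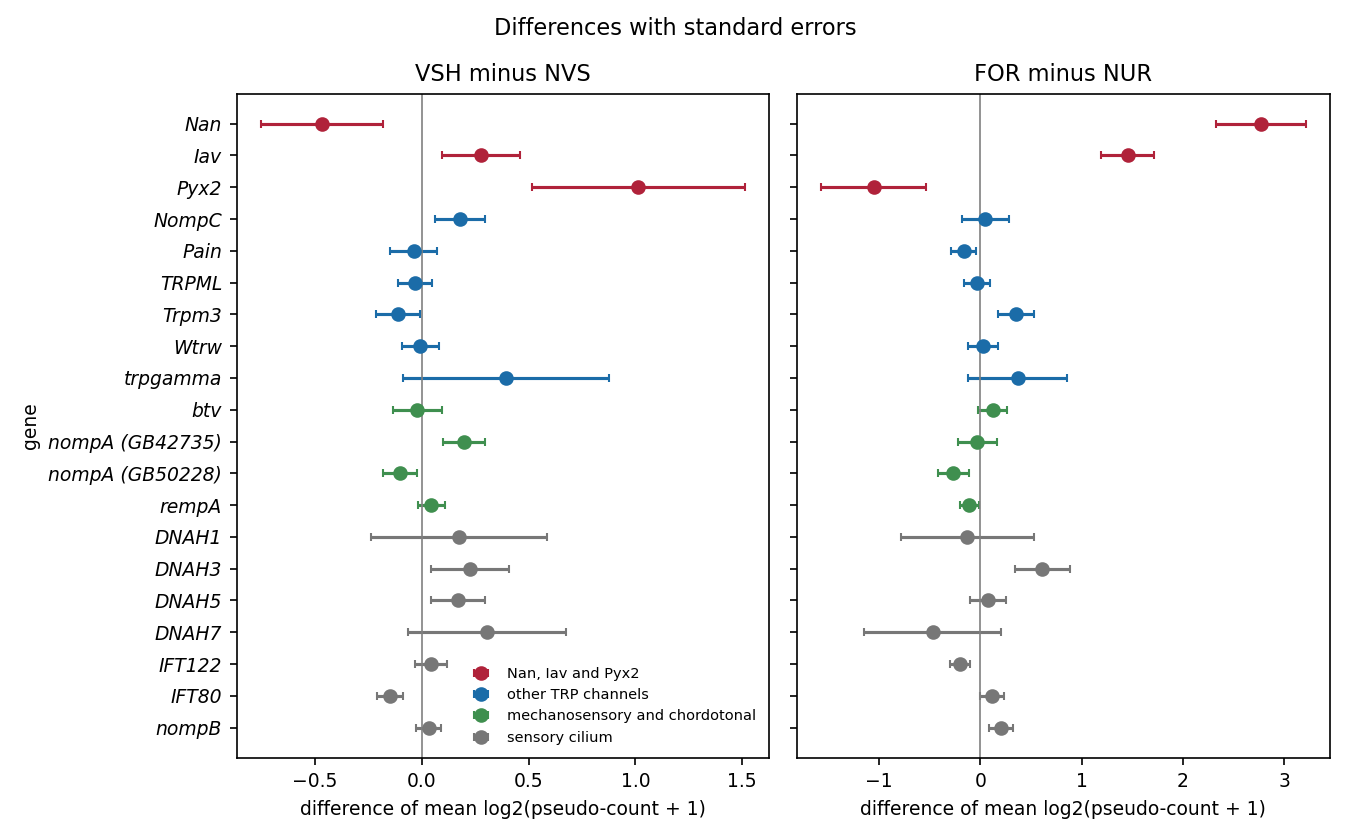
Differences of mean log2(pseudo-count + 1) with standard errors (x axis, each panel with its own scale) for the 3 TRP genes in red and for other TRP, mechanosensory and ciliary genes (y axis), VSH minus NVS at left and FOR minus NUR at right. TRP, TRPL and DNAH2, at low levels, are left out. The red points at right lie at 2.77, 1.45 and -1.05, while the other genes lie between -0.47 and 0.61. The genes in red were chosen with both comparisons known, the others by list.

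The genes whose pattern over the 13 libraries was most like that of each channel were found by Pearson's correlation of log2 values, after the mean of each table was taken off, among the 8808 genes whose mean reached 20 in both tables. The libraries share their groups and tables, so these correlations are descriptions. Nan was most like LOC409789 (GB44146), annotated as a peptidase C1-like protein, with 0.96 over 13 libraries, 0.93 in VSH and NVS and 0.97 in FOR and NUR libraries. Its mean pseudo-count was 11140 in FOR, 2997 in NUR, 2711 in NVS and 1831 in VSH bees, the order that Nan also showed within each table. The next were LOC102656586, LOC726866, LOC726407 and LOC552354, at 0.89 to 0.92.

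The 5 genes most like Iav were LOC102655428, LOC102656816, LOC102656241, LOC551761 (alpha-tocopherol transfer protein-like) and LOC552110 (a putative fatty acyl-CoA reductase), at 0.93 to 0.95. LOC551761 had a mean of 31920 in FOR and 7228 in NUR bees, and of 5314 in VSH and 4808 in NVS bees. For Pyx2 they were LOC552073, LOC408528, Pet117, LOC100577045 and LOC100578771, at 0.86 to 0.89. These were at 0.89 to 0.97 in VSH and NVS libraries alone and at 0.56 to 0.84 in FOR and NUR libraries alone. Pet117 of yeast and human is an assembly factor of cytochrome c oxidase. Its mean was 53.2 in VSH and 41.3 in NVS bees, and 77.9 in FOR and 92.2 in NUR bees.

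Nan and Iav were not among each other's nearest genes. Their correlation was 0.75 over the 13 libraries, made of 0.98 in the 5 FOR and NUR libraries and -0.29 in the 8 VSH and NVS libraries. The genes therefore ran together across the task groups, where both were highest in foragers and NUR1. They ran apart among the in-hive bees of known age, where Iav rose in the order of age and Nan did not. Pyx2 had correlations of -0.87 with Nan and -0.93 with Iav over FOR and NUR libraries and of 0.25 and 0.41 over VSH and NVS libraries.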

How the data were processed

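Per the labels and the methods, the authors used CASAVA 1.8.2 and FastQC for base calls and read quality, TopHat2 with Bowtie2 2.2.3 for alignment to the honey bee genome, HTSeq 0.6.1p1 for gene counts and edgeR 3.4.0 for scaling (Relative Log Expression). The deposited values (signal) are the resulting pseudo-counts, of which 0% above 0 are whole within 1e-06, so no count test was run. Depth per library was not at hand, and the number of libraries limits the precision. The study reports that the number of uniquely aligned reads varied widely between libraries, which bears on low values such as those of Pyx2. Values below 1e-10 were set to 0.

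Groups were compared within a table with limma 3.58.1 in R 4.3.3 (trend, two-sided, Benjamini-Hochberg over all genes tested, threshold 0.05) on log2(value + 1), for genes with a sum of at least 20 (VSH and NVS) or 15 (FOR and NUR), the study's minimums applied here to normalised values. The age slope had the group as a term. The script was tested on simulated data. The members, lists and tests were chosen with earlier results of these data known. Lists were matched by symbol, and the symbol forms Trpm3, nompB, IFT80, IFT122 and DNAH were added once the files were read. Named were the 3 genes, all other TRP genes found, the 5 genes most like each channel, and for the other lists genes past the threshold or else the 3 largest FOR and NUR differences at a mean of at least 10. Names came from the files, and 10485 genes were matched by ID in a gene table of Amel_HAv3.1. Over 8133 genes, deviations from the group mean correlated at 0.161, 0.215, 0.276 and 0.388 in the age-matched pairs 1 to 4, whose numbers and ages stand in the labels, so these pairs served as blocks in an alternative fit. Other alternatives were the pseudocount, the filter, the scaling and leaving out each library.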

Additional observations from a re-analysis of the deposited data

How the results depend on the processing

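Over 135 values of Nan, Iav and Pyx2 under the alternatives, 0 moved by more than the spread between libraries. That count cannot show that the values were stable, because the spread could exceed the value itself. It was 0.50 for Nan at -0.47 between VSH and NVS. For the age slopes it was 0.139 for Nan at -0.0040 and 0.235 for Pyx2 at 0.076. A change of filter also leaves a log2 difference as it was. The opposite sign was seen in 3 values, all for the age slope of Nan (0.02 in NVS libraries alone and without VSH4, 0.03 without NVS1). Without a single library, VSH minus NVS ranged from -0.79 to -0.27 for Nan, from 0.14 to 0.44 for Iav and from 0.44 to 1.30 for Pyx2. In each of the 3 comparisons 0 other TRP genes were called under every alternative run. With few genes called over all genes, this too says little about the family. The number of genes called over all genes did vary. Between VSH and NVS it was 4, with 2 under no filter, 127 with the replicate block, and 0 (without VSH1, VSH2, VSH3, NVS3 or NVS4) to 11 (without NVS2) without a library, 7 without NVS1. Between FOR and NUR it was 10, with 4 under a pseudocount of 0.5, no filter or a mean of at least 10, 6 with the replicate block, and 0 (without FOR2, FOR3 or NUR3) to 85 (without NUR2) without a library. FOR and NUR share the numbers 2 and 3 alone, and whether these pair the libraries was not tested. For the age slope it was 15, with 0 under no filter, and 0 (without VSH1, NVS1 or NVS4) to 62 (without VSH3) without a library, 4 without VSH2 and 3 without VSH4. With FOR2 or FOR3 left out, the lone forager library is assumed to vary like the nurses. The cause of these changes was not tested. With 2 foragers and 3 nurses, and no depth per library, small differences were not detectable.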
